A study of Mus musculus with 16 samples.

Results

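The knockout of Atf4 in heart muscle cells was made with 2 different floxed alleles, and the quantity described here is how far the knockout's effect on each gene differed between them. RNA was sequenced from ventricles of mouse embryos at embryonic stage E11.5, and all 16 of the 16 libraries of the series entered the comparison, 4 in each of 4 groups. In the first line exons 2 and 3 of Atf4 were flanked by loxP sites, Atf4 fl(e2/3), and in the second exon 2 alone, Atf4 fl(e2). The Cre recombinase came from the Xmlc2-Cre transgene, which the series describes as specific to cardiomyocytes, so the other cell types of the ventricle are outside its stated target. Each line had a control group and a conditional knockout (cKO) group, and each library is labelled as a biological replicate. The labels do not say if the controls had the floxed allele or Cre, and the genotype label reads C57BL/6 WT on every sample, cKO included. The exon 2-3 line is labelled batch 1 and the exon 2 line batch 2, and the effects of line and of batch cannot be told apart. A constant difference between the batches cancels here because each cKO group is set against its own line's controls. A batch that altered the size of a knockout effect cannot be told apart from the allele.

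ATF4 is a transcription factor whose translation increases when cells sense amino acid shortage, protein folding stress or mitochondrial dysfunction. It is known for driving genes of amino acid synthesis and uptake, tRNA charging and the mitochondrial folate (one-carbon) pathway. p53 is a transcription factor stabilised by DNA damage and other stresses, and its targets act in cell cycle arrest, DNA repair and cell death. Genes of both programmes, of cell division and of the heart muscle were therefore followed as lists. The members of the lists were chosen with earlier results of these data known. Counts and medians of a list beside all tested genes are therefore descriptions, and no support for a programme is drawn from them.

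The values are the authors' TPM, a measure of transcript abundance per length that is scaled to a fixed total in each library. For every gene the interaction term was the mean cKO minus control difference of the exon 2-3 line less that of the exon 2 line, on the log2(TPM + 1) scale. A positive term means that the change from control to cKO was more positive in the exon 2-3 line. It does not say in which line the gene moved, so the difference of each line is given beside it without a test. The table was held in part, with 5921 rows on chromosomes 1, 10 and part of 11 that summed to between 15.2% and 17.1% of a library's TPM. Atf4 was not analysed here, so the knockout itself could not be checked. Libraries of a group correlated with Pearson's r between 0.982 and 0.992 across the tested genes. TPM keeps no depth, and the labels give only 30 to 70 M paired-end reads per library. The 8 cardiomyocyte markers held summed to between 12543 and 18474 TPM in a library, whereas the 10 neuron markers held summed to between 5.43 and 11.9 TPM, with 5 of them under 1 TPM in every library. Erythroid markers, mostly hemoglobin genes, summed to 11306 TPM in exon 2-3 cKO replicate 4 and to at most 4714 TPM in any control library.

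Knockout effects differed between the alleles for 62 of 2620 tested genes (limma, Benjamini-Hochberg adjusted p under 0.05), which is 2.37% of them. In 42 genes (1.6%) the term was positive and in 20 (0.763%) it was negative. The term reached 1 or more in size for 7 of them, 5 positive and 2 negative. The mean cKO minus control difference was larger in size in the exon 2-3 line for 57 of the 62 genes and in the exon 2 line for 5. The 5 were Aldh1l2, Shmt2, Stc2, Casq1 and Rnasek. The 62 genes were selected on the difference of these same quantities, and the share over all tested genes was not counted. Nothing is therefore read from this count about which knockout had the stronger effect. Without exon 2-3 cKO replicate 4, the library with the most erythroid RNA, 44 genes were called, 25 of them positive.

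An unadjusted p under 0.05 was found for 392 genes, and the median term over all tested genes was 0.044. For 1569 genes (59.9%) the 95% interval of the term lay within 0.5 of 0. The interval's median distance from the term to its end was 0.28. The adjusted threshold was stricter than this unadjusted interval, so terms well above 0.28 in size could also go uncalled. Apaf1, with a term of 0.51 (SE 0.13), just passed (limma adjusted p 0.049). Mars1, with -0.47 (SE 0.12), did not (limma adjusted p 0.052). Genes with a smaller SE passed at smaller terms, such as Cdk1 at -0.4 (SE 0.07). The share of positive terms among the calls depended on how the libraries were scaled. It was 67.7% on the deposited scale, 53.4% of 133 calls after quantile normalisation and 52.0% of 127 calls after centring each library on its median. At the 0.05 threshold, 31 of the 62 genes were called in each one-library-left-out fit and in each other setting of the fit that tested them. Of these 31, 21 had a positive and 10 a negative term.

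**Figure D1:**
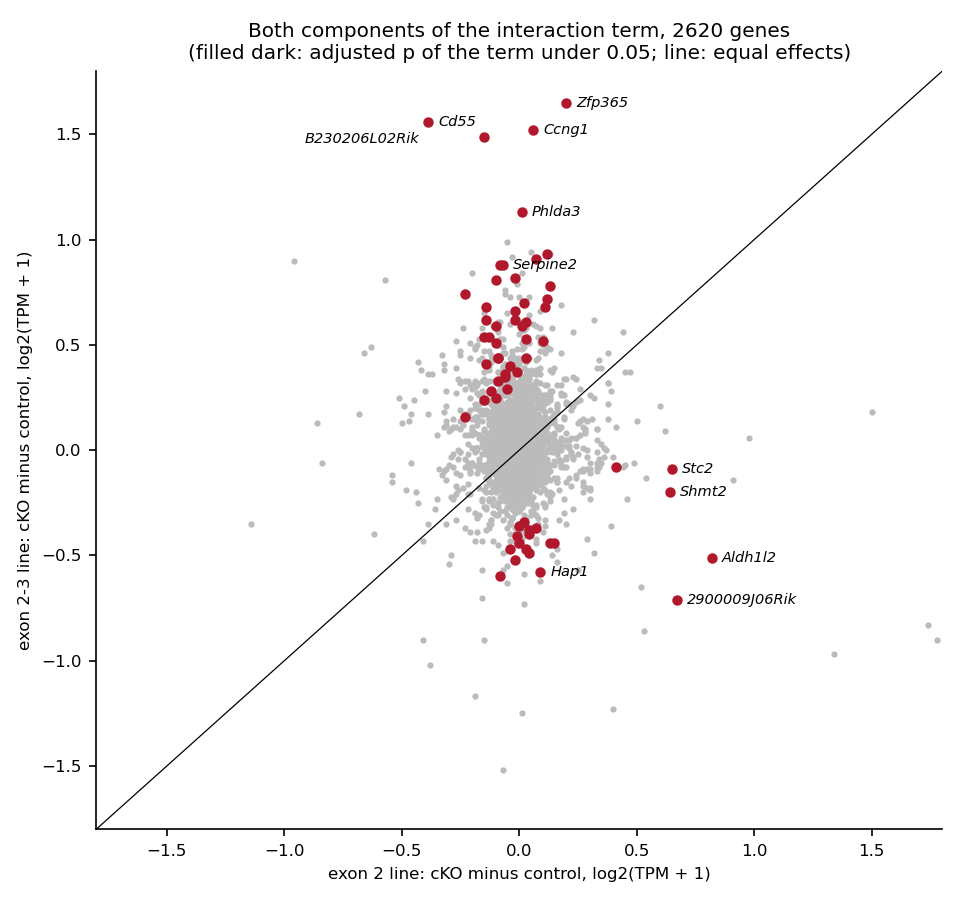
Each point is 1 of 2620 genes, placed by its cKO minus control difference in the exon 2 line (horizontal axis) and the exon 2-3 line (vertical axis), both on the log2(TPM + 1) scale. The 62 called genes are dark, and the line marks equal differences. The called genes spread mainly along the vertical axis, with Aldh1l2, Shmt2, Stc2, Casq1 and 2900009J06Rik displaced to the right. The called genes were selected on the difference between the axes, so nothing is read from this spread.

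Genes that ATF4 is known to drive had mostly negative terms. Of 50 listed ATF4 targets 11 were held and tested, and 3 of them were called, all with a negative term, where 0.763% of all tested genes were called in that direction. The term was negative in 10 of 11, against 1057 of 2620 tested genes, and its median was -0.371, against 0.044 over all tested genes. This list too was written with earlier results of these data known, so the comparison describes its members and does not test them. The 3 called members, Aldh1l2, Shmt2 and Stc2, were higher in cKO than in control libraries of the exon 2 line and lower or close to control in the exon 2-3 line.

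Aldh1l2 encodes the mitochondrial 10-formyltetrahydrofolate dehydrogenase, an enzyme of folate metabolism (GRCm38 chr10:83487447-83534146, minus strand). In the exon 2-3 line it measured 18.7, 16.8, 16.8 and 18.4 TPM in the controls, and the 4 cKO libraries averaged 12.1 ± 0.701 TPM (SD) with none above 13.0 TPM. In the exon 2 line it measured 24.3, 21.8, 26.5 and 24.1 TPM in the controls and 41.6, 43.8, 45.8 and 41.8 TPM in the cKO. Control and cKO libraries did not overlap in either line, and they were ordered in opposite ways. The difference was -0.51 in the exon 2-3 line and 0.82 in the exon 2 line. The term was -1.33 (SE 0.092, limma adjusted p 1.82e-07), and no one-library-left-out fit gave an adjusted p above 1.39e-06. The row overlaps Gm51778 on the other strand.

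Shmt2, the mitochondrial serine hydroxymethyltransferase that feeds one-carbon units from serine, differed in the same direction. Its TPM was 73.6, 70.8, 59.8 and 81.2 in the exon 2-3 controls and 59.8, 61.3, 58.7 and 67.9 in the exon 2-3 cKO. It was 70.4, 71.3, 75.8 and 68.0 in the exon 2 controls and 113, 118, 119 and 97.0 in the exon 2 cKO. The exon 2 groups did not overlap, while the exon 2-3 groups did. The term was -0.83 (SE 0.12, limma adjusted p 0.000613). Shmt2 shares part of its locus with Ndufa4l2 on the other strand, and the labels do not say if reads were counted by strand.

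Stc2, which encodes the secreted glycoprotein stanniocalcin 2, measured 6.15, 6.43, 4.81 and 6.34 TPM in the exon 2-3 controls and 4.83, 5.45, 5.64 and 6.1 TPM in the exon 2-3 cKO. In the exon 2 line the controls measured 5.63, 6.22, 8.35 and 6.39 TPM and the cKO libraries 10.7, 12.0, 11.1 and 9.82 TPM. Only the exon 2 line separated its 2 groups. The term was -0.74 (SE 0.16, limma adjusted p 0.0192), and it missed the threshold without exon 2 cKO replicate 2 (adjusted p 0.0509).

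The 8 other ATF4 targets tested were not called on the deposited scale. Mars1, the methionyl-tRNA synthetase, had a term of -0.47 (95% interval -0.73 to -0.21, limma adjusted p 0.052) and was called under 7 of 10 other settings. Its values averaged 40.1 ± 4.21 TPM in exon 2-3 controls and 34.6 ± 2.95 in the exon 2-3 cKO, against 42.5 ± 4.47 and 51.4 ± 3.43 in the exon 2 line (SD, n = 4 each). Slc1a4, a transporter of neutral amino acids, had a term of -0.44, Atf3, a stress-induced transcription factor, -0.37, and Mthfd1l, a mitochondrial formate-producing enzyme, -0.35. Ddit3, which encodes the stress factor CHOP, had a term of -0.23 with a 95% interval from -0.69 to 0.23. Its locus overlaps Mars1 on the other strand. For Eprs, a tRNA synthetase, the term was -0.12, and for Xpot, a tRNA exporter, it was -0.07.

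Ddit4, an inhibitor of mTORC1 that is also counted as a p53 target, was the 1 member with a positive term, 0.54 (95% interval 0.21 to 0.87, limma adjusted p 0.0897). Its TPM was 31.4, 30.3, 24.7 and 36.5 in exon 2-3 controls and 45.3, 43.7, 48.2 and 50.0 in the exon 2-3 cKO. In the exon 2 line it was 26.1, 21.2, 30.2 and 24.9 in controls and 26.0, 23.9, 30.5 and 26.2 in the cKO. The number of called ATF4 targets was 8 of 11 after quantile normalisation and 8 of 11 after median centring. In both, the added genes were Atf3, Ddit4, Mars1, Mthfd1l and Slc1a4.

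The one-carbon and tRNA synthetase genes can be read beside these. Of 7 one-carbon genes tested 2 were called, Aldh1l2 and Shmt2 again, both with a negative term (0.763% of all tested genes), and the list's median was -0.277. Mthfd1l and the cytosolic Shmt1 had intervals below 0 (-0.61 to -0.09 and -0.46 to -0.09) without passing the adjusted threshold. Atic, which uses folate in purine synthesis, had an interval of -0.19 to 0.24. None of 8 aminoacyl-tRNA synthetases was called by limma, beside 2.37% of all tested genes. Of these 8, 2 had an unadjusted p under 0.05, and their median was -0.09. None of 11 genes of protein folding in the endoplasmic reticulum was called either, beside the same share, with 2 at an unadjusted p under 0.05. There the sign was mostly the other way, positive in 9 of 11 with a median of 0.121. Erlec1 had the widest interval of these, -0.13 to 2.21.

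**Figure D2:**
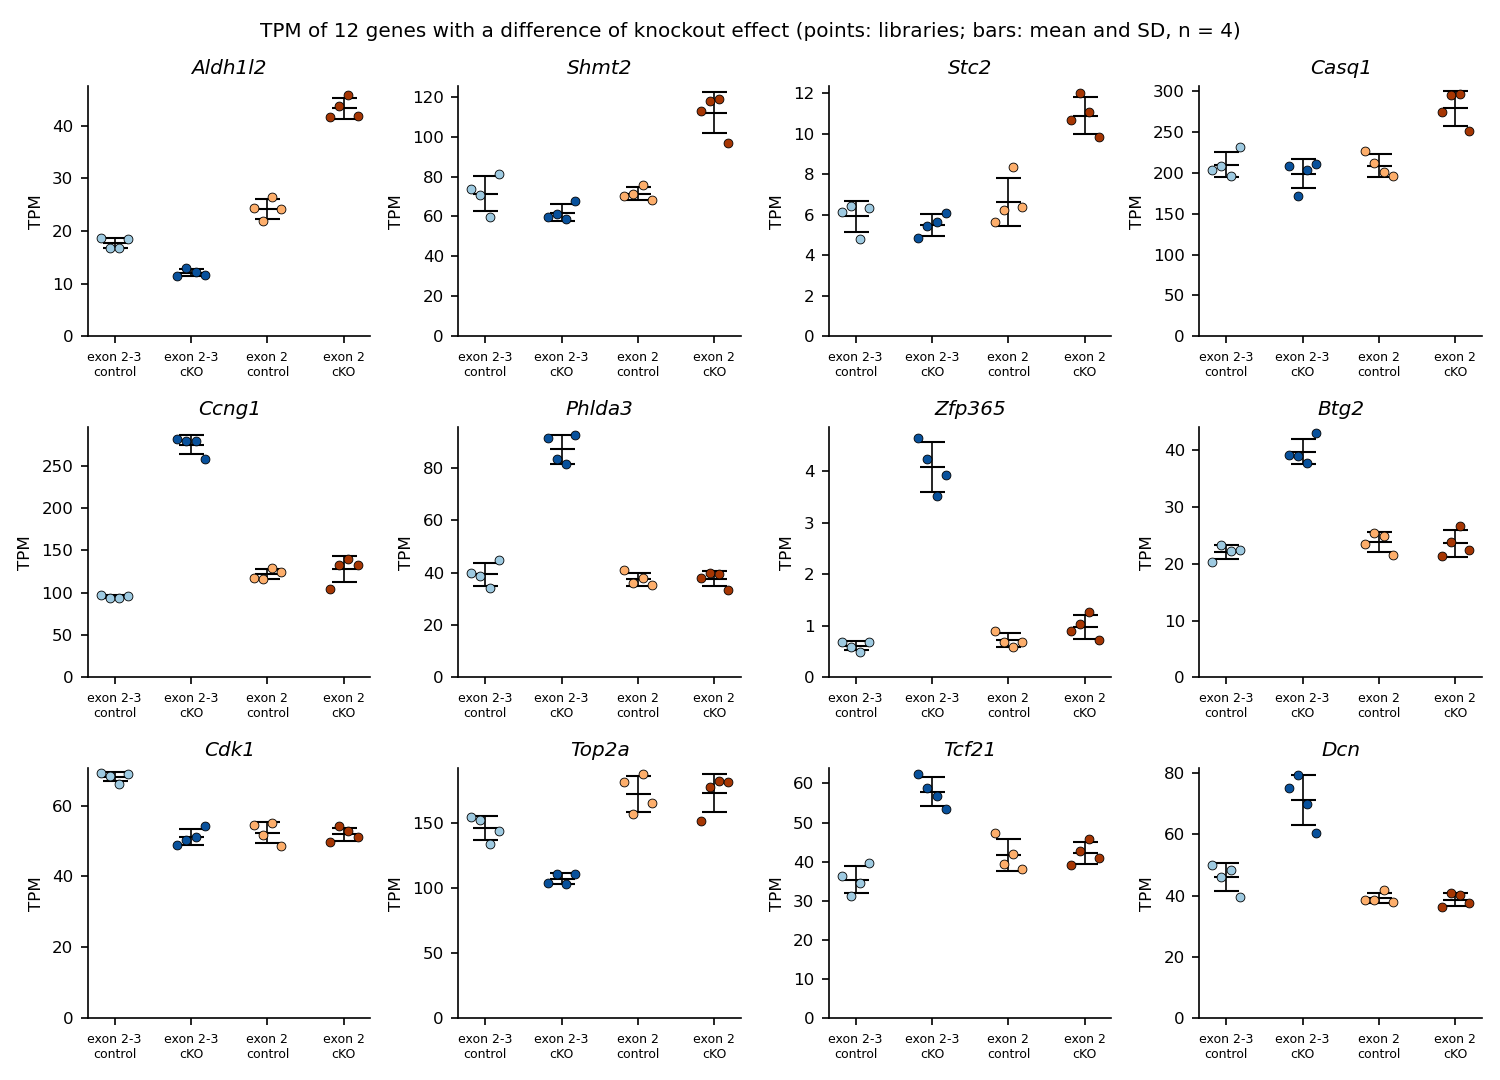
TPM (vertical axes, from 0) of 12 called genes in the 4 groups, with 1 point per library and bars for the mean and SD of 4 libraries. Aldh1l2, Shmt2, Stc2 and Casq1 are high in the exon 2 cKO, Ccng1, Phlda3, Zfp365, Btg2, Tcf21 and Dcn are high in the exon 2-3 cKO, and Cdk1 and Top2a are low in the exon 2-3 cKO relative to its controls.

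Targets of p53 made up the list with the most calls. Of 44 listed genes 13 were held and 12 tested, and 9 were called, all with a positive term, where 1.6% of all tested genes were called in that direction. Every one of the 12 terms was positive, and the median was 0.751. Because these members were chosen with earlier results of these data known, the count is not an independent test of the list. The 9 genes were higher in the cKO than in the controls of the exon 2-3 line in every library, and in the exon 2 line their mean differences lay between -0.15 and 0.2. The number called was between 8 and 10 under each other setting and each one-library-left-out fit at this threshold, and 7 at an adjusted p under 0.01.

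Ccng1, which encodes cyclin G1, a partner of the p53 regulator MDM2, is transcribed from the minus strand of chromosome 11 (GRCm38 chr11:40748552-40755309). It measured 97.9, 94.1, 93.8 and 95.7 TPM in the exon 2-3 controls and 282, 279, 279.7 and 258 TPM in the exon 2-3 cKO. The exon 2 line had 118, 116, 129 and 125 TPM in the controls and 104, 133, 139.9 and 133 TPM in the cKO. The exon 2-3 groups were far apart and the exon 2 groups overlapped. The difference was 1.52 in the exon 2-3 line and 0.06 in the exon 2 line, and the term was 1.46 (SE 0.1, limma adjusted p 1.82e-07).

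Phlda3, an inhibitor of AKT signalling, measured 40.0, 38.7, 34.0 and 44.8 TPM in the exon 2-3 controls and 91.3, 83.2, 81.5 and 92.4 TPM in the exon 2-3 cKO. The exon 2 controls measured 40.8, 36.1, 37.8 and 35.1 TPM and the exon 2 cKO 38.1, 39.8, 39.6 and 33.5 TPM. Both lines started from a like control level, and only the exon 2-3 cKO libraries stood above it. The term was 1.12 (SE 0.11, limma adjusted p 2.3e-05).

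Zfp365, a zinc finger gene linked to genome stability, was low in 3 of the groups. It measured 0.684, 0.592, 0.498 and 0.684 TPM in the exon 2-3 controls against 4.65, 4.23, 3.51 and 3.92 TPM in the exon 2-3 cKO. The exon 2 controls measured 0.908, 0.688, 0.597 and 0.68 TPM and the exon 2 cKO 0.901, 1.03, 1.26 and 0.718 TPM. Its term was 1.45 (SE 0.16, limma adjusted p 4.41e-05), a scale on which the change of so low a gene is understated.

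Btg2, an inhibitor of proliferation, measured 20.4, 23.4, 22.2 and 22.5 TPM in the exon 2-3 controls and 39.2, 39.0, 37.8 and 43.0 TPM in the exon 2-3 cKO. In the exon 2 line it was 23.5, 25.4, 25.0 and 21.5 TPM in the controls and 21.3, 23.8, 26.6 and 22.5 TPM in the cKO. Its term was 0.84 (SE 0.1, limma adjusted p 0.000203). Ercc5, an endonuclease of nucleotide excision repair, averaged 11.1 ± 0.983 and 20.2 ± 1.17 TPM in the exon 2-3 controls and cKO against 13.7 ± 1.19 and 12.8 ± 1.54 TPM in the exon 2 line (SD, n = 4 each). Its term was 0.9 (limma adjusted p 0.000519).

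Slc19a2, a thiamine transporter, averaged 7.49 ± 1.26 and 15.1 ± 0.56 TPM in the exon 2-3 controls and cKO and 7.23 ± 0.269 and 7.96 ± 0.532 TPM in the exon 2 line, with a term of 0.81 (limma adjusted p 0.00158). Perp, a membrane protein of cell junctions and apoptosis, had a term of 0.69 (limma adjusted p 0.000337). Its exon 2-3 cKO libraries lay between 89.3 and 98.9 TPM and its exon 2 cKO libraries between 63.5 and 69.9 TPM. Ptpn14, a phosphatase that restrains YAP, had a term of 0.57 (limma adjusted p 0.0138). Apaf1, the core of the apoptosome, had a term of 0.51 (limma adjusted p 0.049), and this call was lost in 13 of 16 one-library-left-out fits.

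The other 3 tested p53 targets were not called. Mdm2, the ligase that degrades p53, had a term of 0.33 (95% interval 0.09 to 0.57, limma adjusted p 0.147), with 38.2, 38.0, 33.2 and 41.5 TPM in the exon 2-3 controls and 49.5, 42.5, 52.3 and 48.4 TPM in the exon 2-3 cKO. Its exon 2 libraries were between 41.3 and 42.5 TPM in the controls and between 38.2 and 47.6 TPM in the cKO. Ephx1, an epoxide hydrolase, had a term of 0.49 (95% interval 0.12 to 0.87, limma adjusted p 0.174). Sesn1, a sestrin that restrains mTORC1, had a term of 0.01 (95% interval -0.25 to 0.28). For Trp53 itself the term's 95% interval ran from -0.15 to 0.36, and for its inhibitor Mdm4 from -0.22 to 0.24. Of 10 tested genes on the list of p53 and its regulators only Ccng1 was called, beside 2.37% of all tested genes. Ccng1 is also counted among the p53 targets above.

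The sequence before the start of 44 of the 62 called genes was in the RefSeq promoter table on GRCm38.p6, 30 with a positive and 14 with a negative term. Ccng1 is printed because it carried the lowest adjusted p among the positive terms and a match to the 10-base p53 half-site (searched on both strands). Capitals mark that match, which lies 185 to 176 bases before the transcript start that the table uses. That start is inside the outermost end of the Ccng1 row given above, so the last 23 bases of the window fall within the row. Shmt2 and Stc2 are printed beside it as called ATF4 targets. Each run is the 250 bases before the start, 5′ to 3′ on the minus strand of the chromosome: chr11:40755287-40755536 for Ccng1, chr10:127522445-127522694 for Shmt2 and chr11:31370062-31370311 for Stc2.
Ccng1: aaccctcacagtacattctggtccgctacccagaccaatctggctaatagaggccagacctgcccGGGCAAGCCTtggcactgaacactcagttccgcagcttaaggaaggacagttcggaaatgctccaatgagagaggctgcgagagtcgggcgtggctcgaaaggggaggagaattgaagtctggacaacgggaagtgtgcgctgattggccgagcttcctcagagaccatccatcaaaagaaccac
Shmt2: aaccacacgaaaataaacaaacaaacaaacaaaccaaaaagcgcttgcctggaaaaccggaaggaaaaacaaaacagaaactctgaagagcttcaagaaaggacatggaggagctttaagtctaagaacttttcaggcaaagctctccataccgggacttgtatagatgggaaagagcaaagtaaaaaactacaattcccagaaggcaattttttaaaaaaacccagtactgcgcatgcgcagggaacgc
Stc2: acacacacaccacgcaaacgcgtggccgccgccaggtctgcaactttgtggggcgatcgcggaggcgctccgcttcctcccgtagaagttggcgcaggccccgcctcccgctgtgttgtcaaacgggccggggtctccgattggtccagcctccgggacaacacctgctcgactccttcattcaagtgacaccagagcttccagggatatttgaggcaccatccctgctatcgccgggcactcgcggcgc
The half-site was found before 3 of 30 genes with a positive term (10%), which were Ccng1, B230206L02Rik and Meioc, and before 0 of 14 with a negative term. It was found before 8.2% of 27025 genes in the table and 7.37% of the tested ones. This search was added after the terms had been seen. The letters TGATGNAA, of the element that ATF4 binds with C/EBP factors, were found on either strand before 3.91% of all genes and 2.39% of tested genes, and before 0 of 30 and 0 of 14 called genes. The windows of Shmt2 and Stc2 held neither motif.

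**Figure D3:**
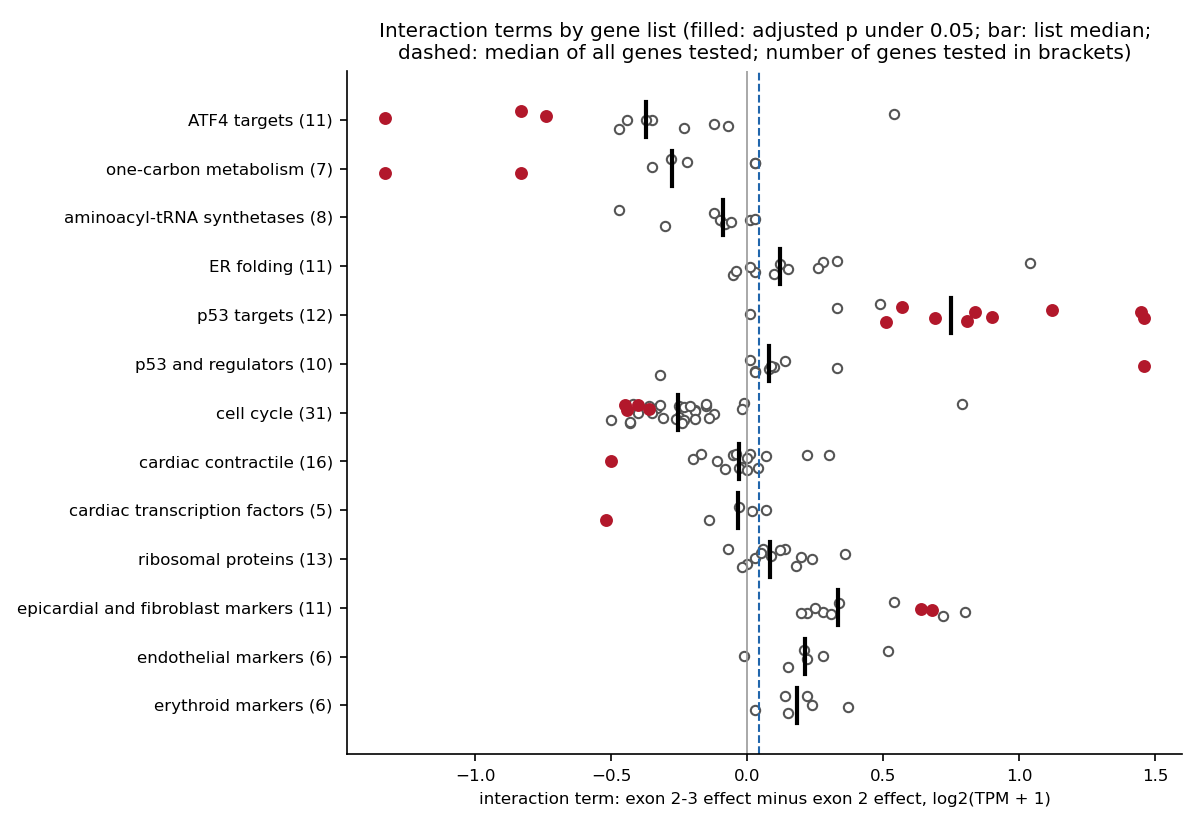
Interaction terms (horizontal axis, log2(TPM + 1)) of the tested genes of each list, with filled points for called genes, a bar at the list median and a dashed line at the median of all tested genes. The p53 targets lie to the right with 9 filled points and a median of 0.751, and the ATF4 targets and cell cycle genes lie mostly to the left with medians of -0.371 and -0.254.

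Genes of the cell division cycle had small negative terms. Of 46 listed genes 31 were tested and 4 were called, Cdk1, Top2a, Nuf2 and Spdl1, all with a negative term, where 0.763% of all tested genes were called in that direction. The term was negative in 30 of 31, Pttg1 being the exception, and the median was -0.254. An unadjusted p under 0.05 was found for 19. The 4 cKO offsets of the exon 2-3 line (each library's log2 difference from its own line's control mean) lay below all 4 of the exon 2 line for 20 of the 31 genes, against 6.6% of all tested genes. The number called was 13 after quantile normalisation and 17 after median centring, all with a negative term.

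Cdk1, the kinase that drives entry into mitosis, measured 69.1, 68.4, 66.2 and 69.0 TPM in the exon 2-3 controls and 48.9, 50.2, 51.1 and 54.1 TPM in the exon 2-3 cKO. The exon 2 line had 54.4, 51.6, 55.1 and 48.6 TPM in the controls and 49.7, 54.1, 52.7 and 51.1 TPM in the cKO. The exon 2-3 cKO was at the level of both exon 2 groups, and the exon 2-3 controls were above all other libraries. The term was -0.4 (SE 0.07, limma adjusted p 0.00437).

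Nuf2, a kinetochore protein, measured 31.9, 33.2, 34.7 and 32.9 TPM in the exon 2-3 controls and 23.9, 26.4, 24.0 and 25.4 TPM in the cKO. The exon 2 libraries were between 34.3 and 38.1 TPM in controls and between 34.6 and 38.5 TPM in the cKO. Here the exon 2-3 cKO libraries were the lowest of all 16, and the term was -0.44 (SE 0.075, limma adjusted p 0.0037). Top2a, a topoisomerase of replicating cells, had a term of -0.45 (limma adjusted p 0.0236), and Spdl1, which recruits dynein to kinetochores, a term of -0.36 (limma adjusted p 0.0305). Leaving out 1 library ended the call of Top2a in 7 of 16 fits and of Spdl1 in 9. Top2a shares its strand with the overlapping row LOC115487886.

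Pimreg and Fignl1 were among the 10 most negative called terms. Pimreg, a regulator of the metaphase to anaphase step, measured 74.4, 64.7, 66.2 and 76.8 TPM in exon 2-3 controls and 47.9, 50.0, 47.3 and 49.2 TPM in the cKO, with 53.8 to 66.0 TPM in exon 2 controls and 60.0 to 61.9 TPM in the exon 2 cKO. Its term was -0.51 (SE 0.094, limma adjusted p 0.00628). Fignl1, an ATPase of homologous recombination, had a term of -0.52 (SE 0.099, limma adjusted p 0.00775), with 30.5 ± 2.3 TPM in the exon 2-3 cKO and group means of 43.2 to 45.4 TPM elsewhere.

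Of 16 tested genes on the contractile and calcium-handling list 1 was called, Casq1, beside 2.37% of all tested genes, and the median was -0.028. The list also names the related Casq2, which was not among the genes tested. Casq1, a calsequestrin that stores calcium in the sarcoplasmic reticulum, measured 203, 209, 196 and 232 TPM in the exon 2-3 controls and 208, 172, 203 and 211 TPM in the cKO. It measured 227, 212, 201 and 196 TPM in the exon 2 controls and 274, 295, 296 and 251 TPM in the exon 2 cKO. Only the exon 2 cKO libraries stood above the rest, and the term was -0.5 (SE 0.11, limma adjusted p 0.0192). The call was lost in 2 of 16 one-library-left-out fits and with no filter on low values. The intervals of abundant genes were narrow for Myl4, an embryonic and atrial myosin light chain (-0.19 to 0.22), and wider for Tnnt2, the cardiac troponin T (-0.59 to 0.25).

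Of 5 cardiac transcription factors tested 1 was called, Hand1, beside the same 2.37% of all tested genes. Hand1, a bHLH factor of the left ventricle, measured 65.5, 58.0, 55.6 and 71.5 TPM in exon 2-3 controls and 40.2, 36.3, 45.1 and 41.7 TPM in the cKO, with 70.8, 75.9, 60.2 and 63.4 TPM in exon 2 controls and 70.5, 64.7, 56.7 and 63.1 TPM in the exon 2 cKO. The exon 2-3 cKO libraries were below all 12 others. Its term was -0.52 (SE 0.13, limma adjusted p 0.0481), which lies just inside the threshold and was lost in 12 of 16 one-library-left-out fits. Hey2, a Notch target of the compact ventricle wall, had an interval of -0.2 to 0.23. None of 13 ribosomal protein genes was called by limma, beside the same 2.37%, 1 had an unadjusted p under 0.05, and their median was 0.086.

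Markers of epicardial cells and fibroblasts, which are outside the stated target of the Cre, had positive terms. Of 11 tested 2 were called, Tcf21 and Dcn, where 1.6% of all tested genes were called with a positive term. All 11 terms were positive, against 1563 of 2620 tested genes, and the median was 0.335. This direction was not particular to these markers. Terms were positive in 5 of 6 endothelial (median 0.214), 6 of 6 erythroid (0.185) and 5 of 5 macrophage markers (0.224). They were positive in 3 of 8 cardiomyocyte markers (median -0.013). Tcf21, a transcription factor of epicardial and fibroblast precursors, measured 36.3, 31.2, 34.6 and 39.6 TPM in exon 2-3 controls and 62.4, 58.9, 56.7 and 53.6 TPM in the cKO. The exon 2 line had 47.4, 39.5, 42.0 and 38.2 TPM in controls and 39.3, 42.8, 45.7 and 41.0 TPM in the cKO. The exon 2-3 cKO libraries were the highest of all 16, and the term was 0.68 (SE 0.11, limma adjusted p 0.00255).

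Dcn, the matrix proteoglycan decorin, measured 49.8, 46.2, 48.2 and 39.6 TPM in exon 2-3 controls and 74.9, 79.4, 69.8 and 60.5 TPM in the cKO, with 38.0 to 41.7 TPM in exon 2 controls and 36.4 to 40.8 TPM in the exon 2 cKO. Its term was 0.64 (SE 0.11, limma adjusted p 0.00505). The collagen genes Col1a1 and Col3a1 had intervals of 0.32 to 1.28 and 0.22 to 0.85 with limma adjusted p of 0.0818 and 0.0687. The summed TPM of the 11 markers was 995 to 1201 in exon 2-3 controls and 1382 to 1472 in the exon 2-3 cKO, without overlap. It was 1286 to 1566 in exon 2 controls and 1272 to 1491 in the exon 2 cKO, which did overlap. In bulk tissue more cells of a type and more RNA per cell cannot be told apart, and the part of cell composition in the other calls was not tested. None of 6 endothelial, 6 erythroid, 5 macrophage, 2 neuron and 8 cardiomyocyte markers tested was called by limma, with 2 endothelial genes and no other at an unadjusted p under 0.05.

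Fn1, the matrix protein fibronectin, was chosen for mention after its values were seen. It measured 334, 381, 355 and 393 TPM in exon 2-3 controls and 666, 609, 601 and 640.2 TPM in the cKO, against 691, 588, 628 and 634 TPM in exon 2 controls and 730.2, 692, 747 and 611 TPM in the exon 2 cKO. The exon 2-3 controls were the low group, and the other 3 groups overlapped. The term was 0.65 (SE 0.1, limma adjusted p 0.00131). For Fn1, as for Cdk1, the exon 2-3 controls also lay apart from the exon 2 controls. The same held for other called genes, among them Aldh1l2, Ccng1, Perp, Ptpn14, Snhg15, Cd55 and 2900009J06Rik. The controls of the 2 lines overlapped for Shmt2, Stc2, Phlda3 and Btg2, among others.

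The most positive term of the called genes belonged to Cd55, which encodes a complement regulator on the cell surface. It measured 0.815, 1.03, 0.942 and 0.953 TPM in the exon 2-3 controls and 3.83, 5.58, 3.99 and 5.6 TPM in the exon 2-3 cKO. In the exon 2 line it measured 3.67, 3.34, 3.89 and 3.73 TPM in the controls and 2.71, 3.99, 1.09 and 3.15 TPM in the cKO. The exon 2-3 cKO reached the level of the exon 2 controls, and 1 exon 2 cKO library, at 1.09 TPM, was below the other 3. The term was 1.94 (SE 0.28, 95% interval 1.36 to 2.53, limma adjusted p 0.000613). Cd55 overlaps its antisense row Cd55os.

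Next came the lncRNA B230206L02Rik, with 3.83, 2.68, 2.57 and 2.83 TPM in exon 2-3 controls and 12.7, 8.78, 10.7 and 8.75 TPM in the cKO. All exon 2 libraries were between 1.56 and 3.1 TPM. Its term was 1.64 (SE 0.23, limma adjusted p 0.000519). Serpine2, a secreted protease inhibitor, measured 104, 113, 90.9 and 123 TPM in exon 2-3 controls and 202, 187, 189 and 217 TPM in the cKO. It lay between 110.4 and 131 TPM in the exon 2 libraries, and its term was 0.95 (SE 0.11, limma adjusted p 0.000101). Snhg15, a small nucleolar RNA host transcript, had a term of 0.96 (limma adjusted p 0.000245), with 29.6 ± 1.92 TPM in the exon 2-3 cKO and 15.7 ± 1.78 TPM in its controls. Its exon 2 means were 10.2 ± 0.145 TPM in controls and 9.64 ± 1.21 TPM in the cKO. Meioc, a meiotic gene, was near 1 TPM, with 2.11 ± 0.526 TPM in the exon 2-3 cKO and group means of at most 1.49 TPM elsewhere, and a term of 0.97 (limma adjusted p 0.0218).

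The most negative term of the called genes was that of the lncRNA 2900009J06Rik, which overlaps Acmsd on the other strand. It measured 5.38, 3.64, 2.67 and 3.34 TPM in exon 2-3 controls and 1.72, 1.89, 1.51 and 2.35 TPM in the cKO. The exon 2 controls measured 1.17, 1.65, 2.22 and 1.54 TPM and the exon 2 cKO 2.51, 4.35, 2.72 and 3.31 TPM. As for Aldh1l2, the groups were separated in both lines in opposite order. The term was -1.38 (SE 0.25, limma adjusted p 0.00467).

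Hap1, a huntingtin-associated transport protein, had a term of -0.66 (limma adjusted p 0.0403) that was called in 4 of 16 one-library-left-out fits. Inpp5j, a phosphoinositide phosphatase, had a term of -0.57 (limma adjusted p 0.0395), also called in 4. Ccdc69, a coiled-coil protein, had a term of -0.59 (limma adjusted p 0.00846) and was called in all 16. Its TPM was 14.3 ± 1.18 in exon 2-3 controls and 10.3 ± 1.14 in the cKO, against 12.4 ± 0.532 and 13.9 ± 0.76 in the exon 2 line (SD, n = 4 each).

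**Figure D4:**
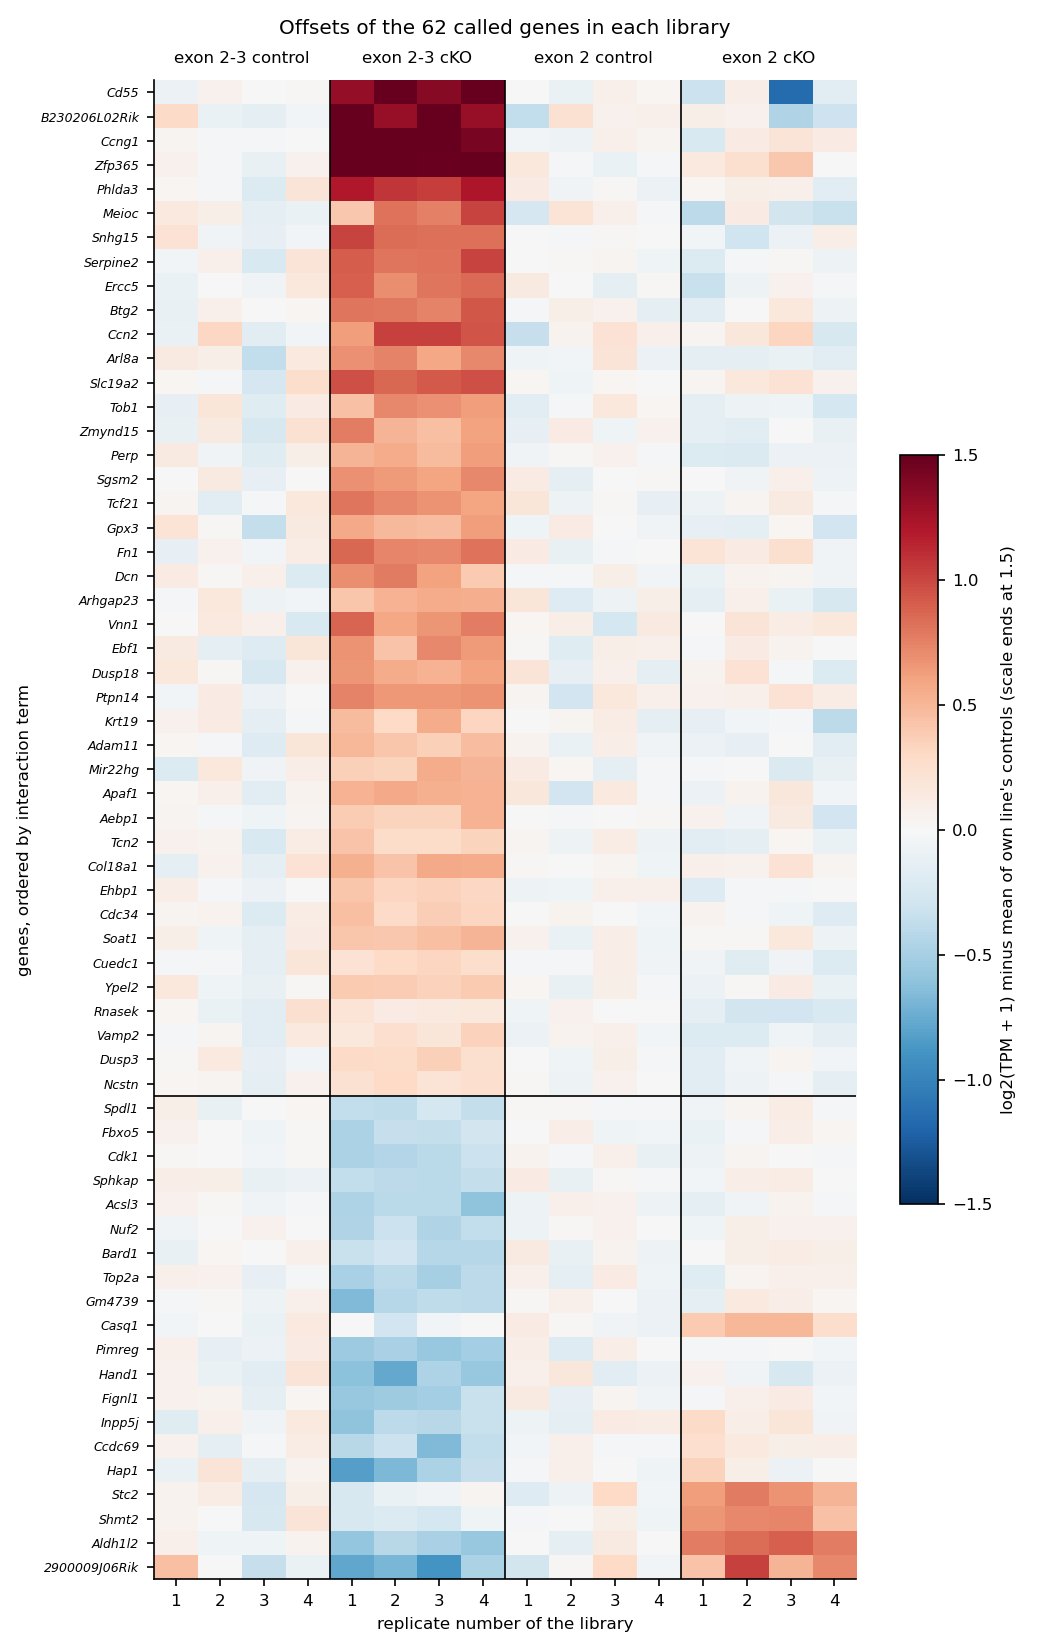
Offset of each library from its own line's control mean (colour, log2(TPM + 1), scale ends at 1.5) for the 62 called genes, ordered by interaction term, in columns of 4 libraries per group. The mean cKO offset is larger in size in the exon 2-3 line in 57 of 62 rows, and Aldh1l2, Shmt2 and Stc2 are coloured in the exon 2 cKO columns. The rows were selected on the difference between the offsets of the lines.

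The offsets of single cKO libraries followed the groups. For all 62 called genes the 4 exon 2-3 offsets lay entirely above (42) or entirely below (20) the 4 exon 2 offsets. Over all tested genes the same held for 353 above (13.5%) and 173 below (6.6%), and since the calls come from the same contrast, nothing is read from the members' count. Ccng1 offsets ran from 1.43 to 1.55 in the exon 2-3 cKO and from -0.22 to 0.19 in the exon 2 cKO. Those of Aldh1l2 ran from -0.58 to -0.41 and from 0.76 to 0.9.

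By position, 17 of 863 tested genes on chromosome 1 were called (1.97%), 14 of 733 on chromosome 10 (1.91%) and 31 of 1024 on chromosome 11 (3.03%). Of the 62 genes, 57 are protein coding, 4 are lncRNAs and 1 is a pseudogene, and 29 overlap another row, so that reads could be shared between the rows. A fixed list holds 20 of them and 42 stand in none. The shares of these gene types, overlaps and list members over all tested genes were not counted, so nothing is read from these counts.

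**Figure D5:**
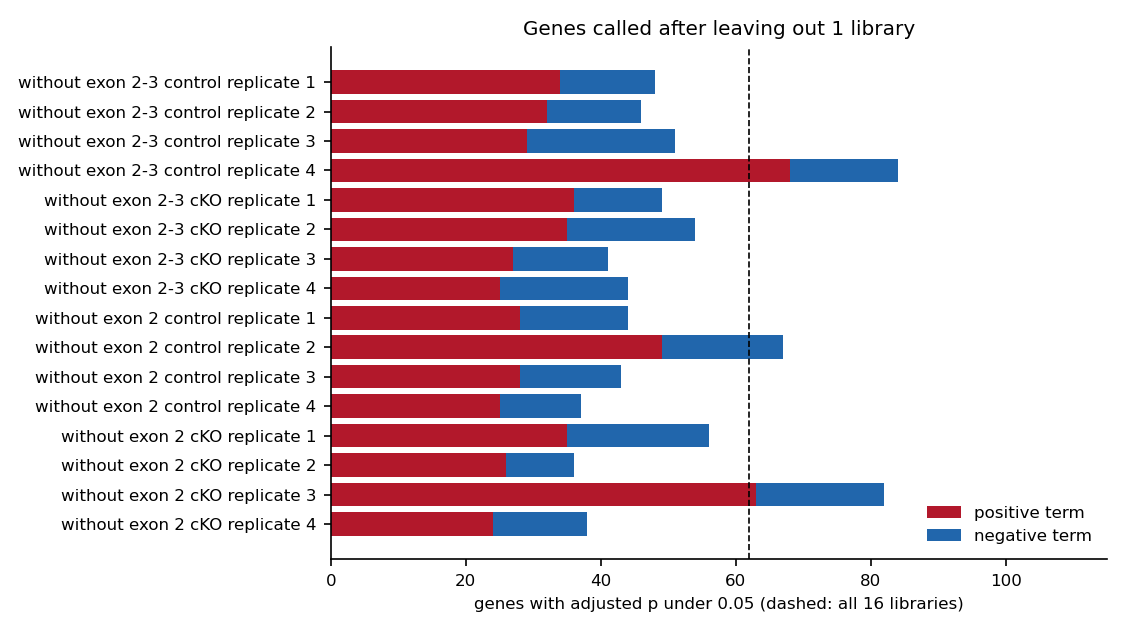
Number of genes called after leaving out 1 of 16 libraries (horizontal bars, red for positive and blue for negative terms), with a dashed line at the 62 called with all libraries. The count ran from 36 without exon 2 cKO replicate 2 to 84 without exon 2-3 control replicate 4.

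The number of calls moved with single libraries. It was 36 without exon 2 cKO replicate 2, 37 without exon 2 control replicate 4, 38 without exon 2 cKO replicate 4 and 41 without exon 2-3 cKO replicate 3. It was 84 without exon 2-3 control replicate 4. Between 35 and 57 of the 62 genes were among the calls of each such fit, and 32 were called in all 16.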

How the data were processed

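RNA-seq libraries of 16 E11.5 ventricles were grouped by title into control and cKO of each line (4 each). The authors deposited TPM values, and per the submitters' processing notes the tools were FastQC, Trim Galore 0.6.7, HISAT2 2.2.1, StringTie 2.2.1, featureCounts and DESeq2 on GRCm38, with roles not given. The labels conflict on library type (stranded mRNA or rRNA depletion) and on the sequencer, and the extraction text names cortical neurons. The table held 5921 complete rows, of which 5919 matched RefSeq GRCm38.p6 coordinates, and 1 incomplete line was left out. Read depth per library is unknown, so no counting interval is given.

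Values were log2(TPM + 1), which understates changes of low genes. The 2620 genes with a mean of at least 1 TPM were fitted with limma 3.58.1 in R 4.3.3 (group means over all 16 libraries, intensity trend, two-sided, Benjamini-Hochberg over all tested genes, threshold 0.05). P-values set the term against the spread between libraries within the groups, and they do not cover variation between batches. Lists were described by counts and medians, with no set test. Text names the 10 most positive and 10 most negative called terms, called list members and all tested ATF4 and p53 targets. Other genes were chosen after their values were seen. The members and lists were chosen with earlier results of these data known. A pairing of same-numbered libraries was not clear: 3 of 8 pairs had r over 0.1. In the exon 2 line r was positive in every such pair (0.0639 to 0.2), so some pairing there is possible. The main fit ignores it, and the block is an alternative. The others were a pseudocount of 0.1, other filters, 4 scalings, array weights, no trend, a threshold of 0.01 and each library left out. The code was tested on simulated data. Tables and figures used Python 3.11.15, pandas 2.3.3 and matplotlib 3.10.9.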

Additional observations from a re-analysis of the deposited data

Results flagged for a closer look

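The difference of effects itself was tested for every gene, and it passed for 62 genes. Among the genes named, the positive terms were 1.94 for Cd55, 1.64 for B230206L02Rik, 1.46 for Ccng1, 1.45 for Zfp365, 1.12 for Phlda3, 0.97 for Meioc, 0.96 for Snhg15, 0.95 for Serpine2, 0.9 for Ercc5, 0.84 for Btg2, 0.81 for Slc19a2, 0.69 for Perp, 0.68 for Tcf21, 0.64 for Dcn, 0.57 for Ptpn14 and 0.51 for Apaf1. The negative terms were -1.38 for 2900009J06Rik, -1.33 for Aldh1l2, -0.83 for Shmt2, -0.74 for Stc2, -0.66 for Hap1, -0.59 for Ccdc69, -0.57 for Inpp5j, -0.52 for Fignl1, -0.52 for Hand1, -0.51 for Pimreg, -0.5 for Casq1, -0.45 for Top2a, -0.44 for Nuf2, -0.4 for Cdk1 and -0.36 for Spdl1.

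In 8 of 168 groups of 4 libraries, over 7 of the 42 named genes, 1 library lay far from the other 3 by Dixon's criterion, and chance gives about 1 in 20 groups. Exon 2-3 control replicate 3 was low for Stc2 (4.81 TPM), Fignl1 (38.8 TPM) and Xpot (26.0 TPM). Exon 2 cKO replicate 1 was low for Ccng1 (104 TPM), Top2a (151 TPM) and Nuf2 (34.6 TPM). Ccng1 was low in exon 2-3 cKO replicate 4 (258 TPM), and Snhg15 was high in exon 2-3 cKO replicate 1 (32.5 TPM).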

How the results depend on the processing

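The term changed sign for 0 of the 62 called genes under the settings tried. The term of Sesn1 and the medians of the cardiomyocyte and erythroid lists, all close to 0 or resting on few genes, took the other sign under some. Counts are those of all calls, then positive calls. Quantile normalisation gave 133 and 71, median centring 127 and 66, array weights 136 and 79, rescaling without hemoglobin genes 93 and 56, and rescaling without hemoglobin genes and 2 abundant rows 105 and 59. No filter on low values gave 42 and 26, and a threshold of 0.01 gave 26 and 18. Called ATF4 targets numbered 8, 8, 7 and 5 under quantile normalisation, median centring, array weights and the rescaling without 2 abundant rows. Called cell cycle genes numbered 13, 17, 15, 7 and 11 under quantile normalisation, median centring, array weights and the rescalings without hemoglobin genes and without 2 further rows, and 2 at a threshold of 0.01. The cause was not tested. With the replicate number as a block, 68 genes were called, 50 of them positive, 5 of them ATF4 targets. That fit shared 50 calls with the main fit, and Apaf1, Spdl1 and Hap1 were among the calls it lost. Same-numbered libraries matched each other best in 4 of 8 pairs, with r from -0.0287 to 0.211. Leaving out 1 library gave 36 to 84 calls, 24 to 68 positive calls, 2 to 4 ATF4 targets, 8 to 9 p53 targets and 2 to 6 cell cycle genes. Positive calls were 27 without exon 2-3 cKO replicate 3 and 25 without its replicate 4, 25 without exon 2 control replicate 4, 26 without exon 2 cKO replicate 2 and 24 without its replicate 4. Under all 4 other scalings, and not on the deposited scale, 22 further genes were called, among them Cdc6, Rad51c, Prim1 and Mars1. The lowest array weights were 0.351 for exon 2-3 control replicate 3 and 0.45 for exon 2 cKO replicate 1, without which 51 and 56 genes were called. Groups of 4 libraries and the unknown depth limit the precision.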
